A study of Mus musculus with 8 samples.

Results

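The pore-forming alpha-1 subunits of voltage-gated calcium channels are encoded by 10 genes in the mouse, and the histone marks at these genes were examined in Lewis lung carcinoma tumors that are sensitive or resistant to a VEGF inhibitor. The family was chosen with earlier results of these data known, since Cacna1b, Cacna1g and Cacna1f are among the genes the study lists, and the 10 genes are its full set, looked up by name among the 22359 protein-coding genes of GENCODE vM1. Each one was found. Peaks were counted when their midpoint fell in a promoter, which begins 1 kb before the transcription start site (TSS) and ends 0.5 kb behind it, or in the rest of the gene body. Each count was set against all protein-coding genes of the same library.

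The LLC line comes from a Lewis lung carcinoma of the mouse. LLC-NR cells are sensitive to VEGF-Trap, and LLC-R cells were selected in mice under repeated VEGF-Trap treatment until they resisted it. Both were inoculated under the skin of female C57BL/6J mice, which were 6 to 8 weeks old when obtained and were kept for a further week, and chromatin of the isografts was cut with micrococcal nuclease and precipitated with antibodies against H3K4me3, H3K9ac, H3K27me3 or H3K36me3. Each line and mark has a single library (1 each, 8 libraries), so differences between LLC-NR and LLC-R tumors have no replicate check and carry no p-value. The labels give the tissue as lung, while the tumors grew in the flank, and host cells of a tumor contribute chromatin that cannot be told apart from that of the tumor cells. LLC-R is 1 selected line, and how many mice were used for a library is not given in the sources used here.

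Voltage-gated calcium channels open when the membrane is depolarized and let calcium ions into the cell, where calcium triggers contraction, secretion and changes in transcription. The Cav1 group carries L-type currents: Cacna1s (Cav1.1) is the voltage sensor of skeletal muscle, Cacna1c (Cav1.2) acts in heart, smooth muscle and brain, Cacna1d (Cav1.3) in pacemaker, endocrine and sensory cells, and Cacna1f (Cav1.4) in photoreceptors. The Cav2 group, Cacna1a (P/Q-type), Cacna1b (N-type) and Cacna1e (R-type), works at synapses, and the Cav3 group, Cacna1g, Cacna1h and Cacna1i, carries low-threshold T-type currents. H3K4me3 and H3K9ac mark the starts of active genes, H3K36me3 marks the bodies of transcribed genes, and H3K27me3 is the mark of Polycomb repression.

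In mm9, the Cav1 genes lie at chr1:137949327-138016399 (Cacna1s), chr6:118542314-119146249 (Cacna1c), chr14:30853135-31304342 (Cacna1d) and chrX:7184209-7212322 (Cacna1f). The Cav2 genes lie at chr8:86912339-87164145 (Cacna1a), chr2:24459407-24618672 (Cacna1b) and chr1:156239649-156573049 (Cacna1e). The Cav3 genes lie at chr11:94269705-94335414 (Cacna1g), chr17:25511230-25570728 (Cacna1h) and chr15:80117668-80228709 (Cacna1i). With bodies between 27.6 kb (Cacna1f) and 332.9 kb (Cacna1e), each member exceeded the median body of 18.8 kb over all protein-coding genes. By CpG content, 7 of the 10 promoters were CpG-rich (HCPs), namely those of Cacna1d and of the Cav2 and Cav3 genes. The promoter of Cacna1c was intermediate (ICP), and those of Cacna1s and Cacna1f were CpG-poor (LCPs). The CpG observed to expected ratio of the whole promoter ran from 0.145 in Cacna1f to 0.937 in Cacna1a.

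As given below, the CpG-rich members lay apart from the others in H3K9ac count in LLC-NR, but not in LLC-R or for the other marks. The 200 bases before the most upstream coding TSS of 4 members are therefore shown, 5' to 3' on the strand of the gene. They come from NCBIM37 (mm9), with each CpG in capitals. Cacna1a and Cacna1f had the highest and the lowest CpG ratio, Cacna1b held the fewest H3K9ac peaks together with Cacna1a in LLC-NR, and Cacna1g held the most H3K27me3 peaks in LLC-NR. These stretches contain 16, 4, 25 and 21 CpGs, in the order printed.

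Cacna1a (chr8:86939063-86939262, plus strand): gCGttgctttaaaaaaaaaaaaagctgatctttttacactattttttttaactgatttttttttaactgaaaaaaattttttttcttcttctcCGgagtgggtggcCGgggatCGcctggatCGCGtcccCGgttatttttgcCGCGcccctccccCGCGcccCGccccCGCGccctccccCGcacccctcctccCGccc

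Cacna1f (chrX:7184025-7184224, plus strand): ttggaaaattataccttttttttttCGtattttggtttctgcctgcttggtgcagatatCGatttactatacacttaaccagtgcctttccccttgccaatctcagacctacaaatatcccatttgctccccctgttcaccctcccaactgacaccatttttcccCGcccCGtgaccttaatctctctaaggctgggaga

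Cacna1b (chr2:24618673-24618872, minus strand): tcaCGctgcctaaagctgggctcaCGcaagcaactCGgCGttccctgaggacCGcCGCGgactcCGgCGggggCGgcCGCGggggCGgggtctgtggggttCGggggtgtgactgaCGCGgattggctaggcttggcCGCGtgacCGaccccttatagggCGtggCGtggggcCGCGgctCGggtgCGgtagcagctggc

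Cacna1g (chr11:94335415-94335614, minus strand): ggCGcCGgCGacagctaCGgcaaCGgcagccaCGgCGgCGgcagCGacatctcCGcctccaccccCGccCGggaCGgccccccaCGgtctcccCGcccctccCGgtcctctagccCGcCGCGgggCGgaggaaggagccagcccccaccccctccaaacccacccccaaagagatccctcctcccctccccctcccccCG

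The libraries held 5660458 to 9101721 peaks. All peaks were 147 bp wide, those of a library did not overlap, and neither reads nor heights come with them, so a count of peaks is close to a count of nucleosome positions and is bounded by the space in the region. No promoter held more than 9 peaks of a mark. H3K4me3 had nearly equal numbers of peaks in LLC-NR (5678337) and LLC-R (5660458). The LLC-R library was the larger one for H3K27me3 (7245090 against 9101721) and H3K36me3 (6432447 against 8747519), and the LLC-NR library for H3K9ac (8547101 against 7853593). Among 9 lung epithelial marker promoters, including those of surfactant and keratin genes, 6 reached the mean H3K4me3 count in each line. This was near the 64.2% (LLC-NR) and 59.2% (LLC-R) found over all promoters. For H3K9ac 7 of the 9 did in each line, against 62.1% and 70.3%, and these counts do not settle the tissue.

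The CpG-rich members had few H3K9ac peaks, most clearly in LLC-NR tumors and on the gene side of the TSS. In LLC-NR, the H3K9ac counts were 2 in Cacna1a, 2 in Cacna1b, 3 in Cacna1d, Cacna1g and Cacna1h, and 4 in Cacna1e and Cacna1i. Their mean was 3.0 ± 0.82 (SD over the 7 genes), against 5.84 ± 1.39 over the 12269 HCPs of the genome. All 7 lay below the HCP mean in both lines, as did 31.4% of all HCPs in LLC-NR and 54.8% in LLC-R. Each of the 7 had 4 peaks or fewer, which was the case for 12.9% of all HCPs. The threshold of 4 was set after the counts had been seen. In LLC-R, the counts were 3 in Cacna1a, Cacna1g and Cacna1h, 4 in Cacna1b and Cacna1e, and 5 in Cacna1d and Cacna1i, with a mean of 3.86 ± 0.90 against 5.23 ± 1.33. There, 5 of the 7 had 4 peaks or fewer, as did 24.2% of all HCPs. Of the 2814 HCPs with 60 to 70% G+C, a range that holds 6 of the 7 members (all but Cacna1e), 22.4% in LLC-NR and 33.0% in LLC-R had 4 peaks or fewer. Among HCPs with at least 6 H3K27me3 peaks, the shares were 17.8% and 24.3%.

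Peak positions showed where H3K9ac midpoints were lacking, which without heights, reads or an input does not show absence of the mark. In LLC-NR, 6 of the 7 CpG-rich members (all but Cacna1e) had no H3K9ac midpoint in the first 500 bp of the gene, against 5.15% of all HCPs. In LLC-R, Cacna1b and Cacna1h still had none, against 5.81% of all HCPs, and the other 5 each had 1. This window was likewise chosen after the positions had been seen, and the number in LLC-NR dropped to 3 (Cacna1d, Cacna1b and Cacna1g) when a peak counted by 1 bp of overlap with it, against 3.54% of all HCPs. In Cacna1b, which encodes the N-type channel of presynaptic terminals, the LLC-NR peaks lay at -980 and -821 bp from the TSS, and the next 1321 bp held none. H3K4me3 and H3K27me3 were present in the same stretch in most of the 7, as in nearly all HCPs. H3K36me3 had no peak there in 5 of the 7 in LLC-NR (Cacna1a, Cacna1b, Cacna1e, Cacna1g and Cacna1i), against 37.6% of all HCPs. The members without H3K36me3 there in LLC-R were Cacna1a, Cacna1h and Cacna1i, against 9.15%. In LLC-NR, none of the 7 lacked an H3K4me3 peak in the first 500 bp, against 1.85% of all HCPs, and Cacna1i alone lacked an H3K27me3 peak, against 6.01%. In LLC-R, Cacna1d and Cacna1i had no H3K4me3 peak in these 500 bp, against 1.88% of all HCPs, and none of the 7 lacked H3K27me3, against 3.37%.

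**Figure D1:**
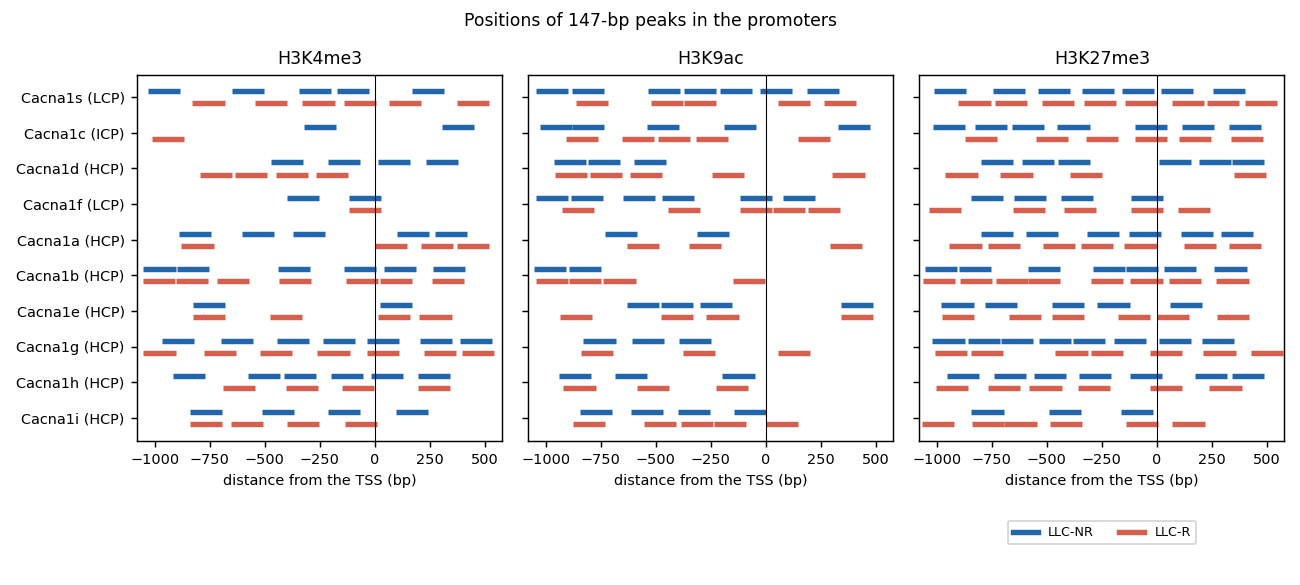
Positions of the 147-bp peaks in the promoters of the 10 members, in bp from the TSS (vertical line), for H3K4me3, H3K9ac and H3K27me3, with LLC-NR in blue and LLC-R in red. To the right of the TSS, the H3K9ac panel has no blue bar whose middle lies there in 6 of the 7 HCP genes, while H3K4me3 and H3K27me3 bars fill the same stretch in most of them.

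The 3 members with fewer CpGs had more H3K9ac peaks than each CpG-rich member in LLC-NR. This did not hold in LLC-R, where the CpG-rich Cacna1d and Cacna1i had 5 as well. In LLC-NR and LLC-R, Cacna1s held 7 and 5 H3K9ac peaks, Cacna1f 6 and 5, and Cacna1c 5 and 5. These 3 promoters each had an H3K9ac peak in the first 500 bp in both lines. Over all 10 members, 2 in LLC-NR and 5 in LLC-R reached the mean promoter of the library for H3K9ac, against 62.1% and 70.3% of all promoters. The 2 in LLC-NR were Cacna1s and Cacna1f, and those in LLC-R were Cacna1s, Cacna1c, Cacna1d, Cacna1f and Cacna1i.

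H3K27me3 was above the mean at most members. In LLC-NR, Cacna1g had 8 H3K27me3 peaks, Cacna1s, Cacna1c, Cacna1b and Cacna1h 7 each, Cacna1d and Cacna1a 6, Cacna1e 5, Cacna1f 4 and Cacna1i 3. In LLC-R, Cacna1s and Cacna1b had 8, Cacna1a and Cacna1g 7, Cacna1c, Cacna1e, Cacna1h and Cacna1i 6, Cacna1f 5 and Cacna1d 4. The mean promoter held 4.56 peaks (LLC-NR) and 5.45 peaks (LLC-R). Thus 8 members reached the mean in each line, against 56.8% and 58.7% of all promoters, and the members below it were Cacna1f in both lines, Cacna1i in LLC-NR and Cacna1d in LLC-R.

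H3K4me3 spread widely among the members. Cacna1g, a T-type channel gene, had 7 H3K4me3 peaks in both lines, and Cacna1b had 6 in LLC-NR against 7 in LLC-R. Cacna1s had 5 and 6, Cacna1h 6 and 4, and Cacna1a 5 and 4. Cacna1d and Cacna1i had 4 in each line, Cacna1e 2 and 4, and Cacna1c and Cacna1f 2 and 1. A second coding promoter of Cacna1f, 20.1 kb downstream and without a full-length transcript, held 7 and 3. Against a mean promoter of 4.92 (LLC-NR) and 4.62 peaks (LLC-R), 5 and 3 members reached the mean, while 64.2% and 59.2% of all promoters did. HCPs averaged 6.05 and 5.60 H3K4me3 peaks. Of the 7 CpG-rich members, 6 in LLC-NR (all but Cacna1g) and 5 in LLC-R (all but Cacna1b and Cacna1g) lay below this, as did 59.3% and 41.9% of all HCPs.

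H3K36me3 at the promoter showed no common level. Counts in LLC-NR were 1 in Cacna1s and Cacna1a, 2 in Cacna1d, Cacna1f and Cacna1g, 3 in Cacna1b, 4 in Cacna1e, Cacna1h and Cacna1i, and 5 in Cacna1c. In LLC-R they ran from 2 in Cacna1h to 7 in Cacna1g. At or above the mean were 4 members in LLC-NR and 6 in LLC-R, against 43.0% and 69.3% of all promoters.

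**Figure D2:**
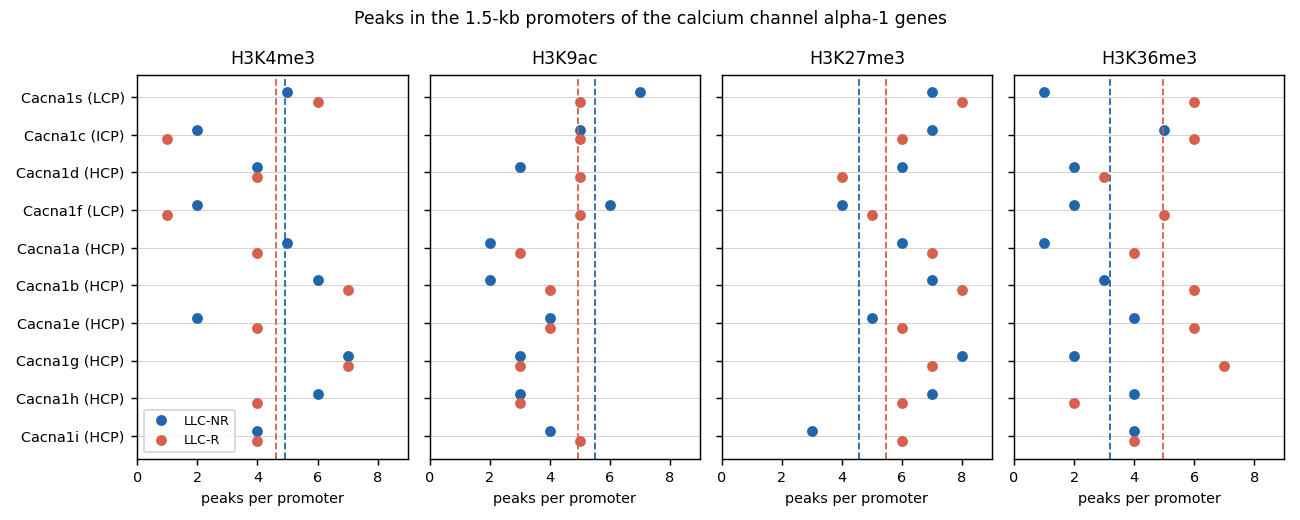
Number of peaks per 1.5-kb promoter of each member for the 4 marks, with LLC-NR in blue, LLC-R in red and the mean of all protein-coding promoters of each library as a dashed line. In the H3K9ac panel the 7 HCP genes lie at 2 to 4 peaks in LLC-NR, left of the dashed line, and in the H3K27me3 panel 8 of 10 genes lie right of it in each line.

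Combining the marks by the classes of the study, with the mean promoter as threshold, Cacna1s, Cacna1a, Cacna1b, Cacna1g and Cacna1h were bivalent in LLC-NR, which means an active mark and H3K27me3 both at or above their means. Cacna1c, Cacna1d and Cacna1e were repressive, with H3K27me3 alone, Cacna1f was active and Cacna1i had none of the marks at its mean. A repressive state was thus found in 3 of 10 members, against 8.18% of all promoters, and a bivalent state in 5 of 10, against 48.6%. In LLC-R, the numbers were again 3 (Cacna1a, Cacna1e and Cacna1h), against 5.69%, and 5 (Cacna1s, Cacna1c, Cacna1b, Cacna1g and Cacna1i), against 53.0%. The state was the same in both lines for 5 members (Cacna1s, Cacna1f, Cacna1b, Cacna1e and Cacna1g), against 62.2% of all promoters, and a step of 1 peak suffices to change it.

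For differences between the lines, each count was divided by the mean promoter of its library, and a member was called at a ratio of 1.41 or more in either direction. H3K9ac gave 3 calls of a higher level in LLC-R, against 6.39% of all promoters, and each was a CpG-rich member with 2 or 3 peaks in LLC-NR. The H3K9ac log2 ratio was 0.97 in Cacna1b (2 and 4 peaks), 0.78 in Cacna1d (3 and 5) and 0.61 in Cacna1a (2 and 3). No member was called lower for H3K9ac, against 8.36% of all promoters. None of these 3 calls was made when the promoter was extended to 1 kb downstream, and scaling by uniquely mapped reads called 9 members higher. At that scaling the median of all promoters lay at 0.55 on the log2 scale.

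For H3K4me3, Cacna1e was called higher (2 and 4 peaks, log2 ratio 0.93), against 11.6% of all promoters, and Cacna1c and Cacna1f lower (2 and 1 peaks each, -0.68), against 10.5%. For H3K27me3, Cacna1i was called higher (3 and 6 peaks, 0.66), against 15.2%, and Cacna1d lower (6 and 4 peaks, -0.76), against 6.72%. The upstream promoter of Cacna1d held 3 and 4 H3K27me3 peaks. For H3K36me3, Cacna1s, Cacna1f, Cacna1a and Cacna1g were called higher, against 23.7%, and Cacna1h and Cacna1i lower, against 17.9%. A single peak separates called from uncalled members in several of these cases. With a 2-fold limit, no H3K4me3, H3K9ac or H3K27me3 call remained.

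A share of the peak positions recurred between the lines. Of the H3K4me3 peaks of member promoters in LLC-NR, 20 of 43 (46.5%, exact 95% interval 31.2% to 62.3%) had an LLC-R midpoint within 37 bp, against 47.8% over all promoters. The shares were 21 of 39 for H3K9ac (53.8%, 37.2% to 69.9%), against 49.6%, and 35 of 60 for H3K27me3 (58.3%, 44.9% to 70.9%), against 48.1%. For H3K36me3, 17 of 28 recurred (60.7%, 40.6% to 78.5%), against 45.8%. Each interval includes the share of all promoters and covers counting error only, with peaks treated as independent. The share that peaks placed at random would reach was not computed.

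Over the gene bodies, 9 of the 10 members lay high in H3K27me3 in LLC-NR. The H3K27me3 density in peaks per kb was 4.33 ± 0.24 in Cacna1s (SD over 10-kb bins of the gene), 4.20 ± 0.33 in Cacna1g, 4.03 ± 0.30 in Cacna1a, 3.93 ± 0.25 in Cacna1b and 3.90 ± 0.38 in Cacna1h. It was 3.85 ± 0.53 in Cacna1e, 3.80 ± 0.27 in Cacna1i, 3.76 ± 0.44 in Cacna1d and 3.73 ± 0.14 in Cacna1f, whereas Cacna1c stood apart at 2.41 ± 0.30. Neighbours in this order differ by less than the SD over bins, except for the step from Cacna1f down to Cacna1c. The 9436 protein-coding bodies of at least 20 kb averaged 2.78 ± 0.86 (SD over genes). The 9 genes thus fell between the 81.8th percentile (Cacna1f) and the 99.6th (Cacna1s) of long bodies, and Cacna1c at the 37.4th. The body of Cacna1c behind the TSS used here is 187.5 kb of a gene of 603.9 kb. Over the whole gene, 20-kb bins averaged 2.61 ± 0.52 (SD over 30 bins), at the 47.7th percentile. Long bodies within 2 percentage points of the member's G+C gave percentiles of 71.8 (Cacna1f) to 98.8 (Cacna1s) for the 9, and 33.0 for Cacna1c.

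In LLC-R, the H3K27me3 densities were closer to each other and to other genes. They ran from 3.91 in Cacna1c to 4.34 in Cacna1a, against 3.69 ± 0.67 over long bodies, with percentiles of 63.4 (Cacna1c) to 94.7 (Cacna1a). Against the mean of all 19555 bodies of at least 1 kb, 9 members in LLC-NR and 10 in LLC-R were at or above it, compared with 48.1% and 63.7% of bodies.

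H3K36me3, the mark of transcribed bodies, was on the low side in LLC-NR. Its density was 1.99 peaks per kb in Cacna1f, 2.07 in Cacna1h, 2.32 in Cacna1g, 2.42 in Cacna1a, 2.54 in Cacna1e, 2.55 in Cacna1d, 2.62 in Cacna1s, 2.69 in Cacna1i, 2.74 in Cacna1b and 3.12 in Cacna1c, against 3.13 ± 0.83 over long bodies. The percentiles ran from 6.73 (Cacna1f) to 45.8 (Cacna1c). Thus 1 member, Cacna1c, was at or above the mean of all bodies, against 55.6%. In LLC-R, the H3K36me3 densities ran from 3.54 in Cacna1d to 4.05 in Cacna1i, against 3.82 ± 0.69, and 6 members reached the mean of all bodies, against 68.0%. Compared with long bodies only, 3 did.

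H3K9ac and H3K4me3 over the bodies were near the level of other genes or below it. For H3K9ac, 7 members in LLC-NR and 8 in LLC-R were at or above the mean of all bodies, against 71.5% and 69.3%, and against long bodies of like G+C it was 4 in each line. For H3K4me3, 2 members in LLC-NR and 1 in LLC-R were at or above it, against 53.1% and 54.5%. Cacna1c had the lowest H3K4me3 density in both lines, with 1.61 and 1.96 peaks per kb. Cacna1i, the T-type channel gene of thalamic neurons, had the highest in LLC-R, with 3.07 peaks per kb (87.3rd percentile) after 2.66 in LLC-NR, and its H3K9ac density of 4.16 in LLC-R was at the 98.7th percentile.

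**Figure D3:**
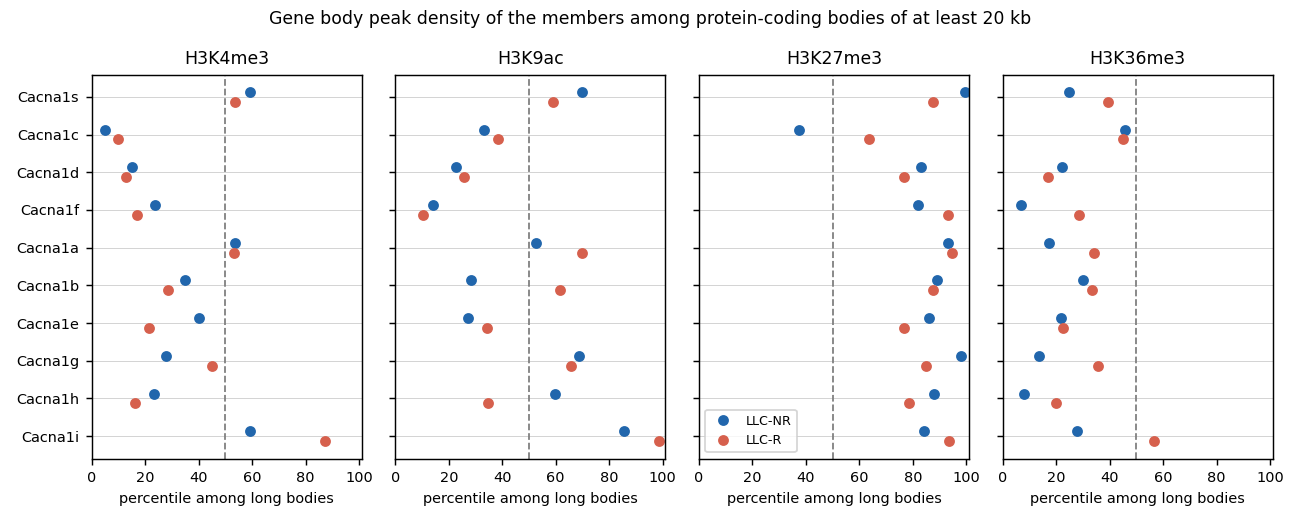
Percentile of each member's gene body density (peaks per kb) among the 9436 protein-coding bodies of at least 20 kb, for the 4 marks, with LLC-NR in blue, LLC-R in red and the 50th percentile as a dashed line. In the H3K27me3 panel, 9 of 10 blue points lie right of 80 and Cacna1c lies at 37.4, and in the H3K36me3 panel the 10 blue points lie left of 50.

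For the comparison between the lines, each density was divided by the mean body of its library. A body was called when its log2 ratio of LLC-R to LLC-NR lay more than 1 SD from the mean ratio of long bodies. For H3K27me3 this mean was 0.064 and the SD 0.32, and 7 members were called lower, against 18.0% of long bodies. They were Cacna1s (log2 ratio -0.43), Cacna1g (-0.40), Cacna1h (-0.32), Cacna1e (-0.31), Cacna1a (-0.29), Cacna1b (-0.29) and Cacna1d (-0.27). No member was called higher, against 14.6%, and Cacna1c had the only positive ratio (0.30). In peaks per kb, Cacna1g had 4.20 in both lines and Cacna1s 4.33 and 4.24, while the mean long body went from 2.78 to 3.69. The starting level moved with these calls: of the 1873 long bodies in the highest 20% by H3K27me3 density in LLC-NR, 74.9% were called lower in LLC-R, and 9 members, including the 7, were among these bodies.

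For H3K36me3, 4 members were called higher in relative body density in LLC-R by the same rule, against 12.4% of long bodies. The log2 ratio was 0.58 in Cacna1f, 0.47 in Cacna1h, 0.39 in Cacna1g and 0.32 in Cacna1a, and no member was called lower, against 7.34%. Here too the starting level moved with the calls, since these 4 were the members in the lowest 20% of long bodies in LLC-NR, of which 56.9% were called higher. For H3K4me3, Cacna1c was called higher (1.61 and 1.96 peaks per kb, log2 ratio 0.30), against 9.21%, and none lower, against 9.46%. H3K9ac gave no call, against 2.63% of long bodies called higher and 3.68% lower. The part of the greater number of reads and peaks of the LLC-R libraries of H3K27me3 and H3K36me3 in these differences was not tested.

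**Figure D4:**
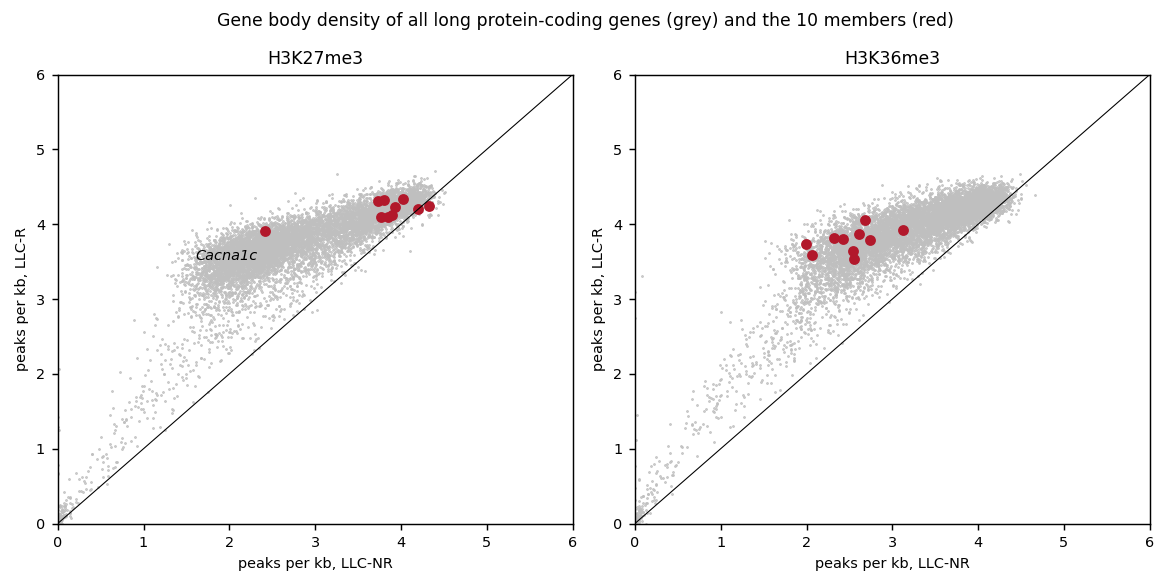
Gene body density in peaks per kb in LLC-NR (x axis) and LLC-R (y axis) of protein-coding bodies of at least 20 kb (grey) and the 10 members (red), for H3K27me3 and H3K36me3, with the line of equal density in black. The cloud flattens toward 4 peaks per kb in LLC-R, 9 members sit at its right end for H3K27me3 with Cacna1c alone at 2.41 on the x axis, and the members sit in its left part for H3K36me3.

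The density of Cacna1c was uneven along the gene, which encodes the main L-type channel of heart and smooth muscle. Its annotated TSSs lie far apart. The one shared by most full-length transcripts is 416 kb behind the most upstream TSS, and its promoter and the body behind it gave the values above. A CpG-rich promoter at position 119058513 of chr6 (minus strand), found by an exact match of the RefSeq promoter sequence of NCBIM37, lies 88 kb behind the most upstream TSS and is not the start of a coding transcript in GENCODE vM1. This CpG-rich promoter held 7 and 6 H3K4me3 peaks in LLC-NR and LLC-R, 6 and 6 H3K9ac peaks, 6 and 7 H3K27me3 peaks and 3 and 5 H3K36me3 peaks. Its H3K9ac count was above those of the 7 CpG-rich members in both lines.

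H3K27me3 in LLC-NR was high around that CpG-rich promoter and low behind it. The mean over 20-kb bins was 3.70 ± 0.24 peaks per kb from 20 to 100 kb behind the most upstream TSS (4 bins, SD over bins) and 2.43 ± 0.24 from 120 kb to the gene end (24 bins). The lowest of the 4 bins had 3.50 and the highest of the 24 had 2.95. Between these stretches, the bin from 100 to 120 kb had 3.30. The same stretches of LLC-R had 4.20 ± 0.17 and 3.91 ± 0.16, with bins of 4.0 to 4.40 and 3.70 to 4.20. H3K36me3 did not divide in this way, with 2.97 ± 0.49 and 2.85 ± 0.37 in LLC-NR. The stretches were set after the profile had been seen, so their separation follows in part from the choice of borders. The first 20 kb, which Dcp1b, a gene of the mRNA decapping complex, shares with Cacna1c, had 2.05 H3K27me3 and 3.30 H3K36me3 peaks per kb in LLC-NR.

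**Figure D5:**
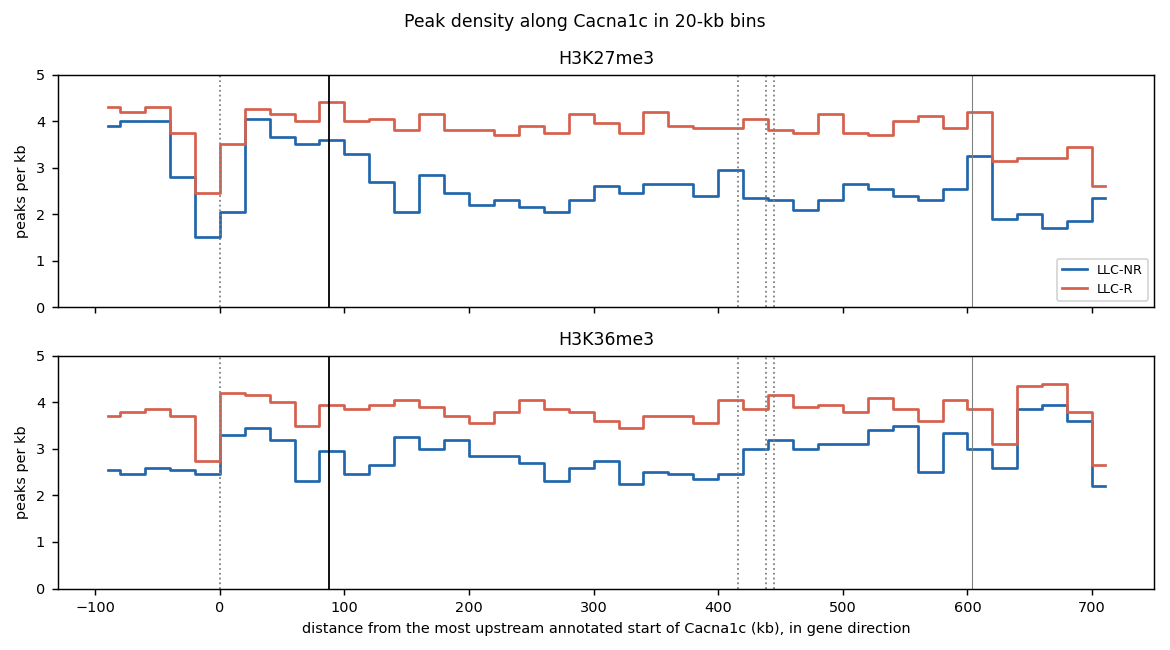
Peaks per kb of H3K27me3 (top) and H3K36me3 (bottom) in 20-kb bins along Cacna1c and its flanks, by distance in kb from the most upstream TSS, with LLC-NR in blue and LLC-R in red. Dotted lines are GENCODE TSSs, the black line is the CpG-rich RefSeq promoter and the thin grey line is the gene end, and the blue H3K27me3 line drops from 3.70 on average between 20 and 100 kb to 2.43 after 120 kb while the red line stays between 3.50 and 4.40 within the gene.

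In the 4 other large members, no bin fell below 2.95. H3K27me3 in 20-kb bins of LLC-NR ran from 3.15 to 4.40 in Cacna1e (16 bins), from 2.95 to 4.25 in Cacna1d (22 bins), from 3.45 to 4.30 in Cacna1a (12 bins) and from 3.75 to 4.25 in Cacna1b (7 bins). The high density did not end at each gene. In the 50 kb upstream, H3K27me3 in LLC-NR was 4.30 peaks per kb at Cacna1g, 4.16 at Cacna1h, 4.12 at Cacna1a, 3.94 at Cacna1s and 3.86 at Cacna1e, close to the bodies. Cacna1b and Cacna1i had less upstream than in their bodies, with 3.14 and 3.0, and Cacna1c had 2.48. The density was 2.16 upstream of Cacna1d, where the decapping gene Dcp1a lies. Upstream of Cacna1f, which has Ccdc22 and Foxp3 on that side, it was 2.0. Downstream of Cacna1a, where Ier2 starts a group of other genes, it was 2.18.

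The accessory subunits, which traffic and tune the alpha-1 subunit (beta, alpha-2-delta and gamma), had like values. Of 16 genes, 16 (LLC-NR) and 15 (LLC-R) reached the mean H3K27me3 promoter, against 56.8% and 58.7% of all promoters. The 13 with long bodies had a median H3K27me3 percentile of 84.6 and 91.3 in these lines, beside 87.2 and 86.1 for the 10 members. Their median H3K36me3 percentile was 18.6 and 25.5. Of their promoters, 3 of 16 were called higher for H3K4me3 in LLC-R, against 11.6% of all promoters, namely Cacnb2 (0 and 2 peaks), Cacng3 (3 and 5) and Cacna2d3 (5 and 7). Cacng7 was called lower (5 and 3), against 10.5%. None of the 16 was called for H3K27me3, against 15.2% called higher and 6.72% lower.

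The voltage-gated sodium channel alpha genes, a related family that drives the upstroke of the action potential, had median H3K27me3 percentiles of 86.9 and 81.9 over 9 long bodies, although 1 of the 9 promoters was CpG-rich. Of the 9 promoters, 4 were called higher for H3K4me3, against 11.6% of all promoters. They included Scn1a and Scn9a (3 and 6 H3K4me3 peaks each) and Scn2a1 (1 and 2). None was called lower, against 10.5%. For H3K27me3, Scn2a1 was called higher (4 and 7 peaks), against 15.2%, and Scn10a lower (7 and 5), against 6.72%. High H3K27me3 percentiles were thus not limited to the calcium channel genes in these libraries.

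Genes that store or respond to calcium, such as ryanodine receptors, calmodulins and calcineurin, lay elsewhere. The 20 long bodies among these 25 genes had median percentiles of 43.5 and 46.7 for H3K27me3 and of 58.2 and 57.5 for H3K36me3. For H3K4me3, 4 of 25 were called higher, against 11.6%, and 0 lower, against 10.5%, and those higher included Camk2a (2 and 5 peaks), Ryr1 (3 and 5) and Ryr2 (4 and 6). For H3K27me3, 3 were called higher, including Ppp3cc (3 and 7 peaks) and Itpr1 (3 and 6), against 15.2%, and 2 lower, including Stim1 (6 and 4), against 6.72%. Markers of several cell types, whether or not these channels are known to work there, were also high in H3K27me3. The median percentile of LLC-NR long bodies was 89.3 for 5 neuronal genes, 84.8 for 3 fibroblast genes, 80.2 for 3 leukocyte genes, 78.1 for 5 genes of skeletal and cardiac muscle and 76.3 for 4 endothelial genes. The 1 smooth muscle gene with a long body lay at 93.1, and 3 housekeeping genes had a median of 50.4. For H3K9ac in LLC-NR, 2 of 7 neuronal marker promoters reached the mean promoter, against 62.1% of all promoters. In the other marker lists this ran from 2 of 4 (smooth muscle) to 6 of 6 (leukocytes). Of the sodium channel genes 5 of 9 did, and of the calcium store and effector genes 18 of 25.

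Within the family, Cacna1e and Cacna1b had the most typical bodies. Their distance to the median profile of the members, as the Euclidean distance of log2 relative density over the 8 libraries, was 0.14 each. The largest was that of Cacna1c (0.94), whose body here is only the part behind the TSS used. Outside the lists, the long genes closest to the median profile were Il17rd (0.063), Sfrp1 (0.081) and Pde10a (0.087), while the median distance of all long genes was 0.90. The first encodes a membrane protein that dampens FGF signalling, the second a secreted Wnt antagonist and the third a cyclic nucleotide phosphodiesterase of the striatum.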

How the data were processed

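Nucleosomal DNA of LLC-NR and LLC-R isografts was sequenced after immunoprecipitation, with 1 library per line and mark. The authors aligned reads to mm9 with Bowtie 0.12.7 with up to 2 mismatches, kept uniquely mapped reads and called peaks per library with GeneTrack, whose settings are not given in the sources used here. The deposited files hold peak positions without heights, reads or an input.

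Genes came from GENCODE vM1. Among coding transcripts with at least 80% of the longest coding sequence, the TSS used by most was taken, the upstream one on ties. The rule had been planned over all coding transcripts, which placed the TSSs of Cacna1f and Cacna1i inside truncated transcripts. HCPs, ICPs and LCPs followed the study's rule (500-bp intervals, 55% G+C, CpG ratios of 0.6 and 0.4). Bodies ran from 0.5 kb behind the TSS to the gene end, and SDs over genes or bins are no replicate errors. For promoters, 0.1 of the mean count was added before taking log2 ratios. A percentile is the share of genes below a value plus 0.5 of those equal to it. RefSeq promoter sequences matched for 7 members. Genes named from the lists were those called for H3K4me3 or H3K27me3, at most 6 per list, and 1 of these is not reported here. The members and lists were chosen with earlier results of these data known. Counting was tested on simulated data. The tools were Matplotlib 3.10.9, NumPy 2.4.6, pandas 2.3.3, Python 3.11.15 and SciPy 1.17.1. Alternatives are given in the closing section.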

Additional observations from a re-analysis of the deposited data

How the results depend on the processing

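The results rest on peak counts from 1 library per line and mark. Leaving out a replicate and a stricter peak height could not be run, since the files hold neither replicates nor heights. No paired analysis was possible because each line and mark has a single library. Of 218 counts and shares recomputed under the alternatives, 153 stayed within 1.5 times the main count, or inside the interval of the main share, and 65 moved. For single promoters, 8 of 400 recomputed log2 ratios changed sign after a call. The cause was not tested for any of them.

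Members at or above the mean promoter. Set against promoters of the same CpG class, 2 members reached the mean for H3K4me3 in LLC-NR and 3 for H3K9ac in LLC-R. For H3K9ac in LLC-NR, 5 did with the most upstream TSS and 1 with the TSS of most coding transcripts, truncated ones included, an alternative chosen after seeing the data. For H3K9ac in LLC-R, 3 did when a peak counted by 1 bp of overlap. H3K27me3 and H3K36me3 stayed within 1.5 times. Of the CpG-rich members without H3K9ac in the first 500 bp, overlap counting left 3 in LLC-NR (against 3.54% of HCPs), and the most upstream TSS left 1 in LLC-R (against 5.93%).

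Members called between the lines at promoters. With the most upstream TSS, 2 were higher and 1 lower for H3K4me3, 1 higher and 1 lower for H3K9ac and 0 lower for H3K27me3. With overlap counting, 1 was lower for H3K4me3, 1 higher for H3K9ac, 0 higher for H3K27me3 and 1 lower for H3K36me3. With the promoter to 1 kb downstream, 1 was lower for H3K4me3, 0 higher and 1 lower for H3K9ac, 0 higher and 2 lower for H3K27me3 and 1 lower for H3K36me3. Scaling by uniquely mapped reads, which the study lists, gave 9 higher for H3K9ac, 0 higher and 9 lower for H3K27me3 and 5 lower for H3K36me3, and it moved the median of all promoters by 0.24 (H3K4me3), 0.55 (H3K9ac), -0.74 (H3K27me3) and -0.42 (H3K36me3) on the log2 scale. Scaling by all peaks gave 3 lower for H3K27me3 and 1 lower for H3K36me3, and no scaling 7 higher and 1 lower for H3K36me3. A pseudocount of 0.5 gave 0 lower for H3K4me3, 0 higher for H3K27me3 and 1 lower for H3K36me3. The TSS of most coding transcripts gave 0 higher for H3K27me3 and 1 lower for H3K36me3. A fold of 1.2 gave 3 higher for H3K4me3, 1 lower for H3K9ac and 4 lower for H3K27me3. A fold of 2 gave 0 in both directions for H3K4me3 and H3K27me3, 0 higher for H3K9ac and 1 lower for H3K36me3.

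With the most upstream TSS, the log2 ratio turned to 0.93 in Cacna1c (H3K4me3), -0.10 in Cacna1d (H3K9ac), 0.14 in Cacna1d (H3K27me3) and -0.35 in Cacna1a (H3K36me3). It turned to 0.076 in Cacna1f (H3K4me3) with overlap counting. In Cacna1i it turned to -0.086 (H3K27me3) when scaled by reads, and with the TSS of most coding transcripts to -0.033 (H3K27me3) and 0.093 (H3K36me3).

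Members at or above the mean body. For H3K4me3 in LLC-NR, 1 reached it over the whole gene, and 0 by overlap or without empty tiles of 1.5 kb, and in LLC-R 3 reached the mean of bodies of at least 20 kb. Among long bodies of like G+C, an alternative added after seeing the data, 4 did for H3K9ac in each line, and for H3K36me3 0 in LLC-NR and 1 in LLC-R. For H3K36me3, bodies of at least 20 kb gave 0 (LLC-NR) and 3 (LLC-R), and leaving out empty tiles gave 3 in LLC-R. H3K27me3 stayed at 9 members in LLC-NR and 10 in LLC-R under the alternatives run. Calls between the lines at bodies kept their numbers over the whole gene, and a scaling cannot move them, since they are centred on long bodies. Shared positions within 20 bp were 35.9% for H3K9ac and 43.3% for H3K27me3. Active marks at 2 times the mean are the threshold in the methods of the study, which used tag counts. With it, each line had 0 active and 0 bivalent members, 8 repressive and 2 none, because no promoter holds that many peaks.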
